A study of Marchantia polymorpha subsp. ruderalis with 24 samples.

Results

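The comparison described here sets young thallus at 42 h of constant light against the same tissue at 36 h, in the liverwort Marchantia polymorpha (subsp. ruderalis). It uses 6 of the 24 libraries of the series, the 3 labelled 42 h and the 3 labelled 36 h, chosen by their labelled time alone. The series as a whole addresses the circadian clock of this plant and the part of DE-ETIOLATED1 (DET1) in it. All 24 libraries came from the male laboratory accession Takaragaike-1 (Tak-1). Gemmae, clonal propagules that form in cups on the thallus, were raised on agar at 20 °C in cycles of 12 h light and 12 h dark and were then moved to constant light. Sampling began 24 h after the move and was repeated every 6 h up to 66 h, with 3 replicates at each of 8 times. Both groups therefore share strain, medium, temperature and light regime, and differ in 6 h of time in constant light. The labels give neither the hour of the light-dark cycle at which the plants were moved nor a time course left in light-dark cycles. Elapsed time in light, development and a rhythm of the plant itself therefore cannot be told apart from these 2 times alone. The labels also do not say whether replicates were separate cultures, so each p-value reflects the spread among these libraries alone, and that spread may be technical. The tissue is labelled young thallus, while the extraction protocol speaks of frozen gemmae.

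Plant circadian clocks are loops of transcriptional regulators that repress or activate each other at different times of day and keep running in constant light. PSEUDO-RESPONSE REGULATOR (PRR) proteins, TIMING OF CAB EXPRESSION1 (TOC1), GIGANTEA (GI) and the evening complex of ELF3, ELF4 and a GARP transcription factor are parts of that loop in flowering plants, and Marchantia has homologues of them. DET1, COP10 and DDB1 form a complex that acts with COP1 and SPA proteins to keep light responses low, and B-box (BBX) zinc finger proteins are among the regulators that work in the same pathway. In Arabidopsis, the loss of DET1 shortens the period of the clock.

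The 6 libraries held 16288390 to 26759297 counts each. Of 20574 genes in the deposited table, 14414 were tested and 6160 were set aside for low counts. Levels are given as CPM, each gene's share of its library's counts rescaled to a common library size, after TMM scaling, and log2 differences are 42 h minus 36 h from edgeR's quasi-likelihood fit to all 24 libraries. A gene is called where its p-value, adjusted over all tested genes by the Benjamini-Hochberg method, is below 0.05. Libraries of the same time correlated with each other at r = 0.984 to 0.994 across genes, and libraries of different times at 0.974 to 0.986. Replicate 2 at 42 h stood further from its 2 partners than any other same-time pair among the 6. The 206 genes listed on the male V chromosome other than MpVg01240 summed to 1863 to 1927 CPM at 36 h and to 1853 to 1928 CPM at 42 h, and none of those tested was called. Markers of other cell types were looked up by name. Tested were 1 of 5 listed rhizoid names (MpFRH1, at most 0.301 CPM), 2 of 3 gemma names, 5 of 6 oil body names and 4 of 7 antheridium names. None of those tested was called. The other names, and both archegonium markers, matched no symbol or fell below the filter, and a gene may be listed under more than 1 name. The 2 gemma markers with a symbol summed to 68.8 to 77.0 CPM at 36 h and to 58.1 to 62.8 CPM at 42 h, and the 5 of the oil body to 59.5 to 70.4 and 62.7 to 81.1 CPM. The 5 antheridium markers with a symbol summed to 218 to 258 CPM at 36 h and to 232 to 265 CPM at 42 h. Nearly all of that sum came from MpRKD, at 164 to 196 and 175 to 196 CPM, and MpCEN1, at 51.7 to 64.9 and 55.1 to 67.9 CPM. MpDUO1 was at 0.360 to 0.764 and 0.129 to 0.445 CPM, and MpTUA5 at 0.514 to 1.64 and 0.607 to 1.34 CPM. MpPRM was at 0 in all 6 libraries.

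Among called genes with a symbol and at least 10 CPM at either time, the largest changes between 36 h and 42 h were in 3 genes. The clock gene MpPRR and the B-box gene MpBBX1 fell, and MpPPR_73 rose. The name MpPPR_73 marks a pentatricopeptide repeat protein, a family whose members mostly bind organelle RNA. MpDET1 rose by a smaller amount. In all, 250 of 14414 genes were called, which is 1.73% of those tested. Of these, 124 were higher at 42 h (0.86%) and 126 were lower (0.874%). At an unadjusted p below 0.05 there were 1768 genes. The 3 libraries of each time did not overlap in 2586 of all tested genes (17.9%), with 1272 higher (8.82%) and 1314 lower (9.12%) at 42 h. The same was true of all but 1 of the called rises and of all 126 called falls, which the calling itself favours. The changes were mostly small. A large fitted rise, of Mp7g00750, started from at most 0.121 CPM, where a fold cannot be given with any precision. The median called rise was 1.51-fold and the median called fall 1.505-fold, and 12 rises and 21 falls reached 2-fold. Called genes had higher levels than genes at large, with a median of 47.8 CPM for rises and 63.8 CPM for falls against 21.6 CPM over all tested genes. The number of calls rested on every 36 h library and on replicate 3 at 42 h. It was 149, 142 or 137 without replicate 1, 2 or 3 at 36 h, and 143 without replicate 3 at 42 h.

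**Figure D1:**
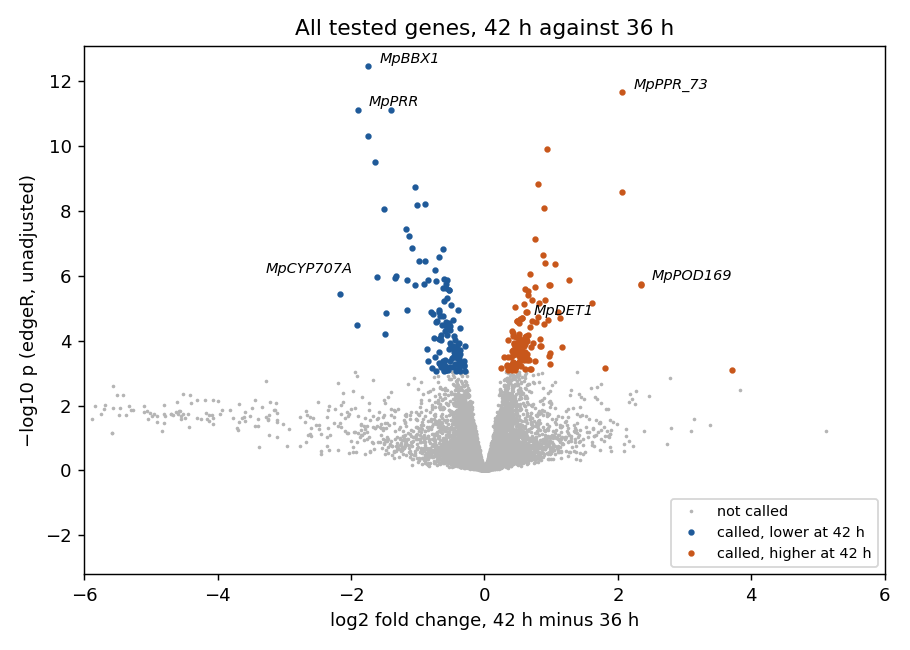
Each point is 1 of the tested genes, with the log2 fold change from 36 h to 42 h on the x axis and −log10 of the unadjusted edgeR p on the y axis. The 126 called falls (blue) and 124 called rises (orange) are about equal in number, and the grey band at the left holds large fitted falls that were not called. A further 22 genes lie beyond the x axis, none of them called.

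The core clock list held 8 genes, all tested, and 1 of them was called. MpPRR (Mp2g16560), the Marchantia member of the PRR repressors, stood at 228, 236 and 213 CPM at 36 h and at 56.4, 62.9 and 62.2 CPM at 42 h. Every library at 42 h was far below every library at 36 h. The mean went from 226 ± 11.7 to 60.5 ± 3.56 CPM (SD, n = 3 each), 3.73-fold lower. The log2 change was −1.90 ± 0.14 (SE) with an edgeR adjusted p of 2.79e-08. The call held under every alternative tried.

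The other 7 clock genes were not called. MpTOC1, a pseudo-response regulator of the evening, had 219, 185 and 187 CPM at 36 h and 144, 207 and 175 CPM at 42 h, so that its libraries overlapped. Its log2 change was −0.17 with an edgeR adjusted p of 0.707. For the evening complex homologues, the log2 changes were 0.15 for MpELF3, 0.11 for MpELF4 and 0.07 for MpGARP7. MpGI was at −0.07, MpFKF, a blue light receptor of the F-box type, at 0.13, and Mp1R-MYB11 at −0.17. The median over the 8 genes was 0.00, against −0.00 over all tested genes.

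Of the 13 light signalling genes 2 were called, 1 in each direction. MpBBX1 (Mp5g05940), a B-box zinc finger protein, had 34.7, 28.4 and 32.8 CPM at 36 h and 10.6, 8.18 and 9.94 CPM at 42 h. Its groups were well separated, with means of 32.0 ± 3.23 and 9.59 ± 1.27 CPM. It was 3.34-fold lower at 42 h, with a log2 change of −1.74 ± 0.11 and the smallest adjusted p of all tested genes (edgeR, 4.95e-09).

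MpDET1 (Mp8g00970), the gene the series is named for, had 44.7, 47.1 and 48.6 CPM at 36 h and 69.5, 64.2 and 74.8 CPM at 42 h. All 3 libraries at 42 h were above all 3 at 36 h. The mean rose from 46.8 ± 1.95 to 69.5 ± 5.29 CPM, 1.48-fold, with a log2 change of 0.57 ± 0.10 and an edgeR adjusted p of 0.00386. The genes whose products share its complex were not called, with log2 changes of −0.10 for MpDDB1 and 0.05 for MpCOP10. The sign for MpCOP10 turned when replicate 2 of either time was left out. MpCOP1, a ubiquitin ligase, was at −0.06 and its partner MpSPA1 at 0.06. Those signs turned without replicate 1 and without replicate 2 at 42 h, respectively. Among the other BBX genes, MpBBX2 was at 0.53, MpBBX6 at −0.30, MpBBX3 at −0.16, MpBBX4 at −0.12 and MpBBX5 at 0.07, none called. MpBBX2 was at or below 1.70 CPM in these libraries. MpRUP, named for the Arabidopsis repressors of UV-B photomorphogenesis, was at −0.18 and MpBHLH6 at −0.27, neither called. The 4 photoreceptor genes MpPHY, MpCRY, MpPHOT and MpUVR8 had log2 changes of 0.06, 0.04, 0.06 and 0.12, and none was called. Without replicate 3 at 36 h the values of MpPHY and MpCRY were just below 0.

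**Figure D2:**
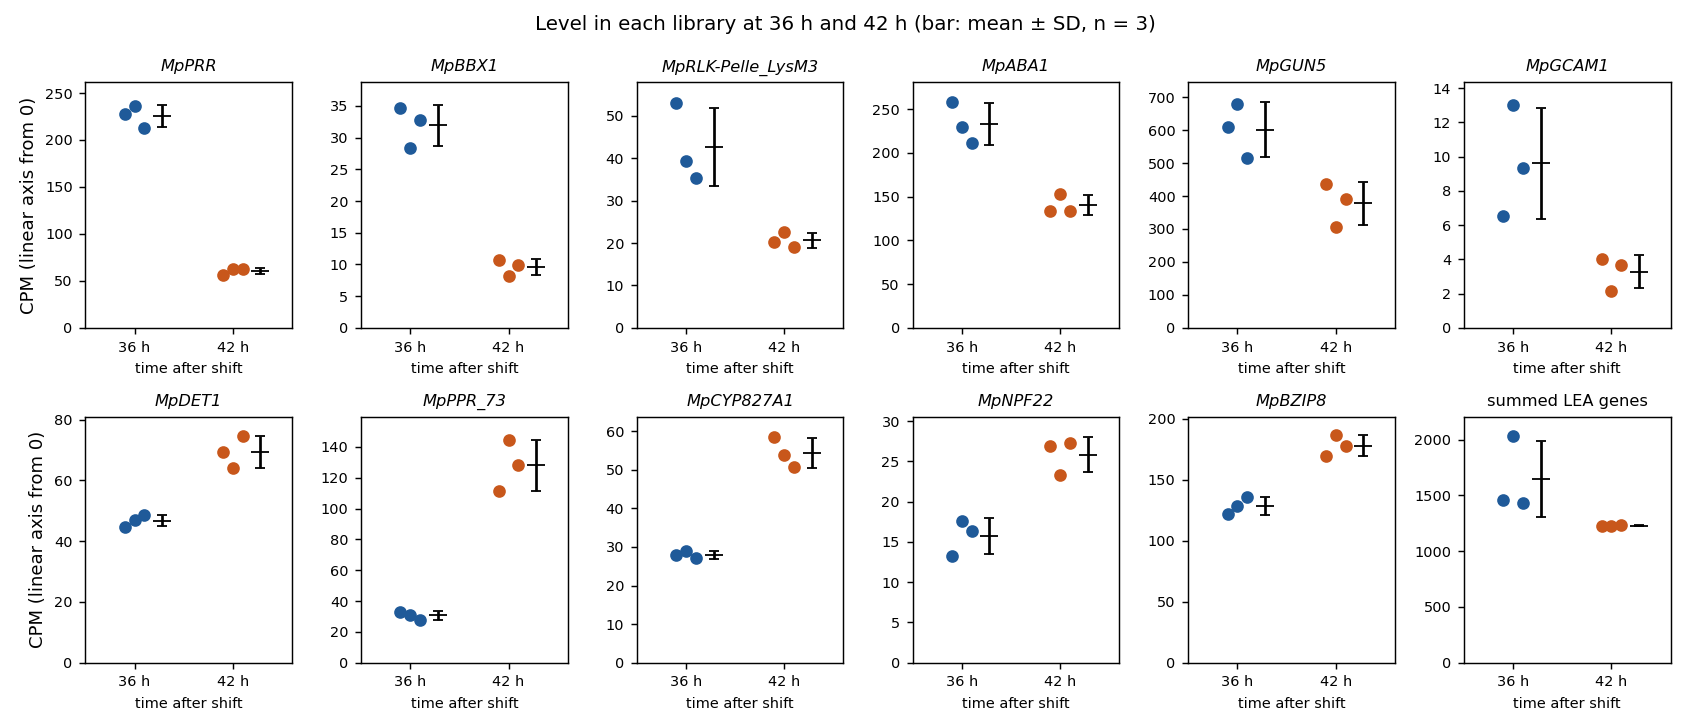
CPM in each library on linear axes from 0, with 36 h in blue and 42 h in orange, and the mean ± SD (n = 3) beside the points. The first 5 panels of each row are called genes whose libraries do not overlap, such as MpPRR at 213 to 236 CPM against 56.4 to 62.9 CPM. The last panels show MpGCAM1 and the summed level of 63 genes named for late embryogenesis abundant proteins, neither of which rests on a call.

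Among the rises, MpPPR_73 (Mp8g16250) went from 33.1, 31.2 and 27.5 CPM at 36 h to 112, 144 and 128 CPM at 42 h. The mean rose from 30.6 ± 2.88 to 128 ± 16.4 CPM, 4.19-fold (log2 change 2.07 ± 0.14, edgeR adjusted p = 1.59e-08). The call held under every alternative tried. The adjacent gene MpPOD169 (Mp8g16260), a class III peroxidase by name, had 0.514, 0.667 and 0.425 CPM at 36 h and 1.82, 3.86 and 2.41 CPM at 42 h. That is 5.09-fold higher at a low level (log2 change 2.35 ± 0.36, edgeR adjusted p = 0.000663), and its correlation with MpPPR_73 over the 24 libraries was 0.948. The call of MpPOD169 was lost with limma-voom (adjusted p = 0.0671) and with a replicate block in a fit to the compared times only (0.0651). Since the strand setting of the counting is not given in the sources used here, shared reads between these neighbours cannot be told apart from separate transcripts. Of 119 tested class III peroxidases MpPOD169 was the single one called. In the pentatricopeptide repeat list, 3 of 72 tested genes rose and none fell, with a median log2 change over the list of −0.00. The other two were MpPPR_16, from 21.9 ± 0.313 to 35.9 ± 2.42 CPM (log2 change 0.72, edgeR adjusted p = 0.0043), and MpPPR_12 at 0.44 (0.0133). The call of MpPPR_12 was lost without replicate 1 or 3 at 36 h or replicate 3 at 42 h, with adjusted p from 0.0544 to 0.0965.

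Among the 10 largest called rises of genes with a symbol, no overlap and at least 10 CPM at either time were 2 transporters and an elongase. MpNPF22 (Mp5g04930), of the nitrate and peptide transporter family, had 13.3, 17.5 and 16.4 CPM at 36 h and 27.0, 23.3 and 27.2 CPM at 42 h. The groups did not overlap, and the log2 change was 0.72 ± 0.12 (edgeR adjusted p = 0.00146). MpAMT1.2 (Mp6g08310), an ammonium transporter, had 53.7, 50.95 and 53.6 CPM at 36 h against 95.6, 77.4 and 75.7 CPM at 42 h. It rose by 0.65 ± 0.11 on the log2 scale (edgeR adjusted p = 0.00111). Both calls held when any of the 6 libraries was left out. MpELO2, a fatty acid elongase by name, rose from 34.2 ± 3.42 to 55.6 ± 3.81 CPM (0.70, adjusted p = 0.0154) and lost its call without replicate 2 or 3 at 36 h or replicate 2 at 42 h (0.0614 to 0.0943).

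Enzymes of specialised metabolism stood in both directions. MpCYP827A1 (Mp5g12720), a cytochrome P450, had 27.9, 29.0 and 27.0 CPM at 36 h and 58.5, 53.9 and 50.8 CPM at 42 h, a 1.95-fold rise (log2 change 0.96 ± 0.15, edgeR adjusted p = 0.000663). Of 93 tested cytochrome P450 genes 1 rose and 4 fell (MpCYP707A, MpCYP829H1, MpKOL3 and MpCYP74N1), and the median log2 change was 0.04. The largest fall in that list was MpCYP707A (Mp2g25940), the enzyme family that breaks down abscisic acid, from 4.42, 3.76 and 4.29 CPM to 1.26, 1.25 and 1.59 CPM. It was 3.04-fold lower at a low level (log2 change −1.61 ± 0.24, edgeR adjusted p = 0.00054). MpCYP829H1 fell from 55.4 ± 3.33 to 36.3 ± 1.08 CPM (−0.61, adjusted p = 0.000559).

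The 2-oxoglutarate dioxygenase gene MpDOXC2 rose from 98.4 ± 11.1 to 195 ± 27.9 CPM (log2 change 0.99 ± 0.22, edgeR adjusted p = 0.0206). That call was lost without replicate 2 or 3 of either time, with adjusted p from 0.0544 to 0.118. In the phenylpropanoid and flavonoid list 1 of 40 tested genes was called. It was MpPKS/CHS14, of the chalcone synthase family, which rose from 45.5 ± 3.84 to 69.0 ± 1.35 CPM (0.60, adjusted p = 0.013). Its call was lost without replicate 2 or 3 at 36 h or replicate 3 at 42 h, with adjusted p from 0.0507 to 0.0952. MpDFR-like12, named for dihydroflavonol reductase, rose from 196 ± 14.4 to 283 ± 22.8 CPM (0.53, adjusted p = 0.00407) and kept its call without any of the 6 libraries. MpADT4, an arogenate dehydratase that makes phenylalanine, went from 93.2 ± 10.5 to 142 ± 26.6 CPM (0.60, adjusted p = 0.0196). Its call was lost without replicate 1 or 3 of either time (0.0751 to 0.138). Of 31 tested glycosyltransferase genes, MpUGT14 rose by 0.84 (adjusted p = 0.011) and MpUGT4 by 0.41 (0.0073). The first lost its call without replicate 1 or 3 at 36 h or replicate 3 at 42 h (0.0509 to 0.0868), the second without replicate 1 at 36 h or replicate 3 at 42 h (0.0594 and 0.0623). MpPPO42, a polyphenol oxidase, was the single called gene of 42 tested in its family, from 1054 ± 117 to 709 ± 16.8 CPM (−0.57, adjusted p = 0.000663).

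Carotenoid and abscisic acid genes were represented by MpABA1 (Mp2g00670), a zeaxanthin epoxidase by its name, which acts in the xanthophyll cycle and upstream of abscisic acid. It had 258, 229 and 212 CPM at 36 h and 133, 153 and 133 CPM at 42 h. The mean fell from 233 ± 23.5 to 140 ± 11.4 CPM (log2 change −0.74 ± 0.11, edgeR adjusted p = 0.000379). The other 8 tested genes of the abscisic acid list were not called, among them MpABA4 at −0.34, MpNCED at 0.03 and MpSNRK2A at 0.02, and the list's median was −0.05. MpGUN5 (Mp8g10280), named for the large subunit of magnesium chelatase at the entry to chlorophyll synthesis, had 609, 680 and 515 CPM at 36 h and 436, 306 and 390 CPM at 42 h. It fell by 0.67 ± 0.16 on the log2 scale (edgeR adjusted p = 0.0364). The other 3 chelatase-related genes were not called, with −0.31 for MpCHLD, −0.21 for MpCHLI1/2-like and 0.03 for MpGUN4. The call of MpGUN5 was lost without replicate 1 or 2 at 36 h, or replicate 2 or 3 at 42 h, with adjusted p from 0.103 to 0.194. None of the 6 tested Calvin cycle genes was called, with log2 changes from −0.13 for MpFBA4 to 0.31 for MpFBA3.

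Receptor and cell wall genes were among the remaining named falls. MpRLK-Pelle_LysM3 (Mp6g15550), a receptor-like kinase of the LysM type, which includes receptors of chitin, had 52.9, 39.4 and 35.3 CPM at 36 h and 20.2, 22.6 and 19.0 CPM at 42 h. It was 2.06-fold lower (log2 change −1.04 ± 0.16, edgeR adjusted p = 0.000663). Of 78 tested receptor-like kinases 1 rose and 2 fell. The second fall was MpRLK-Pelle_URK-Pp-1c (−0.58, adjusted p = 0.00452), and the rise was MpRLK-Pelle_RLCK-Xva (0.52, 0.0152). The rise lost its call without replicate 2 or 3 of either time (0.0528 to 0.104). The glycoside hydrolase genes MpGH16.8 and MpGH16.41, of a family that includes enzymes of cell wall xyloglucan, fell from 76.3 ± 4.04 to 46.6 ± 1.40 CPM and from 40.4 ± 1.08 to 25.4 ± 1.62 CPM. Their log2 changes were −0.71 (adjusted p = 0.0044) and −0.67 (0.00335), and both calls held without any of the 6 libraries.

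Of 49 tested cell wall genes 1 rose and 1 fell. The fall was MpEXL3, named for the EXORDIUM-like proteins, from 76.6 ± 11.1 to 45.4 ± 3.34 CPM (−0.75, edgeR adjusted p = 0.0103). The rise was MpExpansin28, of the wall-loosening expansins, from 14.97 ± 1.057 to 23.7 ± 4.14 CPM (0.66, 0.0297). MpEXL3 lost its call without replicate 1 or 2 at 36 h or replicate 3 at 42 h (0.0533 to 0.0661). MpExpansin28 lost it without any 36 h library or without replicate 1 or 3 at 42 h (0.0667 to 0.163). MpAUX1, an auxin influx carrier, fell from 103 ± 13.3 to 75.6 ± 1.24 CPM (−0.45, adjusted p = 0.0358) and was the single called gene of 16 tested in the auxin list. Its call was lost without replicate 1 or 2 at 36 h or without any 42 h library (0.0814 to 0.217). MpGDPD, a glycerophosphodiester phosphodiesterase by name, fell by 0.67 (adjusted p = 0.0106) and lost its call without replicate 1 at 36 h or replicate 3 at 42 h (0.0784 and 0.0851). MpKOL3, named as ent-kaurene oxidase-like, fell by 0.78 (adjusted p = 0.0438) and lost its call without any 36 h library or without replicate 1 or 3 at 42 h (0.0616 to 0.231).

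Few transcription factors were called beyond the clock and light lists. In the bZIP family 2 of 13 tested genes rose, MpBZIP8 from 129 ± 7.17 to 178 ± 8.77 CPM (log2 change 0.47, edgeR adjusted p = 0.00991) and MpBZIP1 from 23.6 ± 1.66 to 32.3 ± 1.12 CPM (0.45, 0.00212). The call of MpBZIP8 was lost without replicate 1 at 36 h (0.0696). MpNAC4 rose by 0.40 (0.0389), Mp1R-MYB12 by 0.45 (0.0482) and MpPLATZ2 by 0.60 (0.0466), while MpBHLH19 fell by 0.59 (0.047). Each of these 4 calls was lost without any 36 h library and without replicate 3 at 42 h, and those of MpNAC4 and MpBHLH19 also without replicate 1 and those of Mp1R-MYB12 and MpPLATZ2 also without replicate 2 at 42 h. The adjusted p was then between 0.0697 and 0.248. None of the 14 tested R2R3-MYB, 12 WRKY or 19 AP2/ERF genes was called.

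Of 43 gene lists, 41 had 3 or more tested members, and 17 had a called member. The lists together held 1093 distinct tested genes, of which 29 were called (2.65%, against 1.73% of all tested genes). No member was called among 24 core histone, 21 cell cycle, 21 autophagy, 40 dirigent, 92 ABC transporter or 5 HSP90 genes. Their median log2 changes were −0.07, −0.08, 0.09, −0.02, 0.00 and −0.21. Of the 7 genes listed as references, MpTUB2 had the smallest p. Its value was −0.26 (edgeR adjusted p = 0.0958), and MpACT1, MpAPT and MpEF1 were at −0.05, −0.11 and 0.19.

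**Figure D3:**
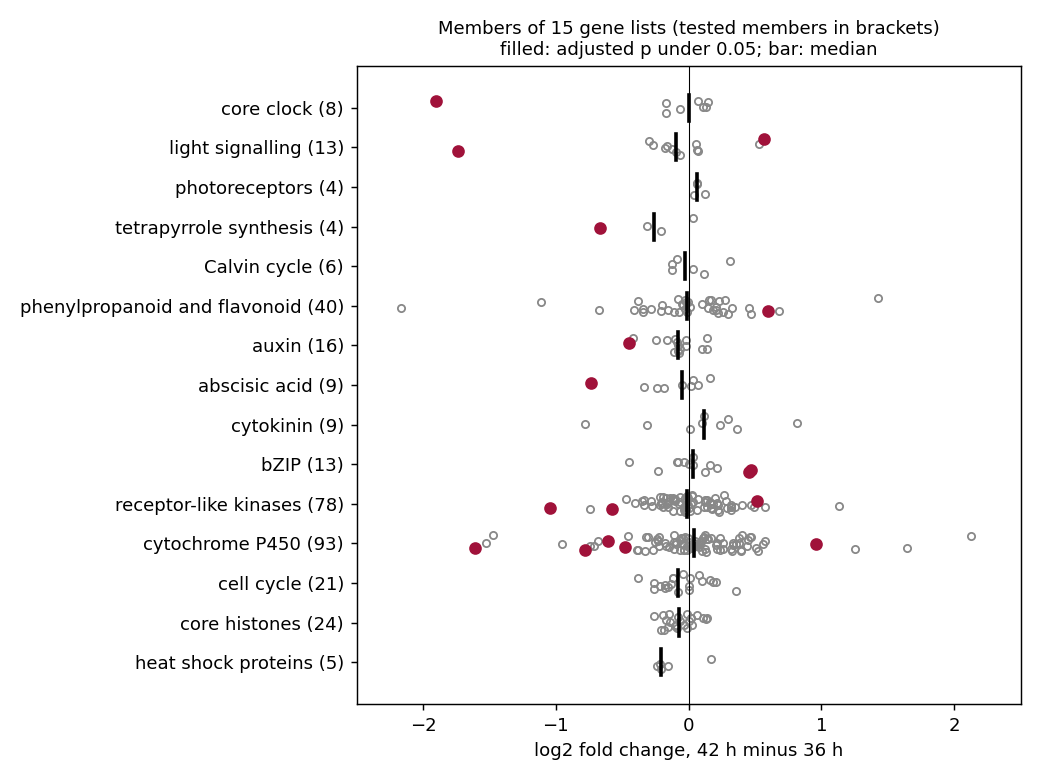
Log2 fold changes from 36 h to 42 h of the tested members of the gene lists, 1 point a gene, with called genes coloured and the list median marked. Medians lie near 0. MpPRR at −1.90 stands away from the rest of the core clock list, while in longer lists some uncalled genes lie further from 0 than the called ones, as beside MpPKS/CHS14 at 0.60.

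Among called genes without a symbol, the 2 largest falls and 2 largest rises with at least 10 CPM at either time and no overlap were as follows. Mp7g05880 went from 651, 554 and 674 CPM to 215, 156 and 188 CPM (log2 change −1.75 ± 0.14, edgeR adjusted p = 1.41e-07). Mp4g20740 went from 76.8, 72.1 and 73.8 CPM to 18.9, 21.8 and 18.8 CPM (−1.90 ± 0.36, 0.00525). In both genes the libraries of 36 h and 42 h were well apart. Mp6g04480 rose from 2.83, 2.305 and 2.55 CPM to 9.43, 10.7 and 11.9 CPM (2.06 ± 0.21, 3.77e-06), and Mp4g01260 from 4.51 ± 0.599 to 10.1 ± 2.27 CPM (1.17, 0.016). Below that level, large called changes were seen, among others, for Mp6g04490 (2.34), Mp1g10610 (−2.16), Mp6g20880 (1.80) and Mp3g19800 (1.62), chosen after their values were seen. The call of Mp4g01260 was lost without replicate 2 or 3 at 36 h or replicate 3 at 42 h (0.0735 to 0.107).

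The called genes differed in when, over the 8 times, their mean level was highest and lowest. Since the rule that called them used the 36 h and 42 h libraries, these times are a description. Of the 124 rises, 80 had their lowest mean at 36 h and 29 at 30 h, and 59 had their highest mean at 48 h and 36 at 24 h. Of the 126 falls, 47 had their lowest mean at 42 h and 50 at 24 h, and the highest mean was at 30 h for 50, at 36 h for 39 and at 60 h for 32. Over all 14414 tested genes, 24 h was the commonest time of both the highest mean (3160 genes) and the lowest (3270). The lowest mean was at 36 h for 1524 and at 42 h for 1401 of them, and the highest at 30 h for 1562 and at 48 h for 1215. MpPRR was highest at 30 h (274 ± 32.5 CPM) and lowest at 42 h (60.5 ± 3.56 CPM). MpDET1 was highest at 24 h (137 ± 5.49 CPM) and lowest at 36 h (46.8 ± 1.95 CPM), with 129 ± 14.5 CPM at 48 h.

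**Figure D4:**
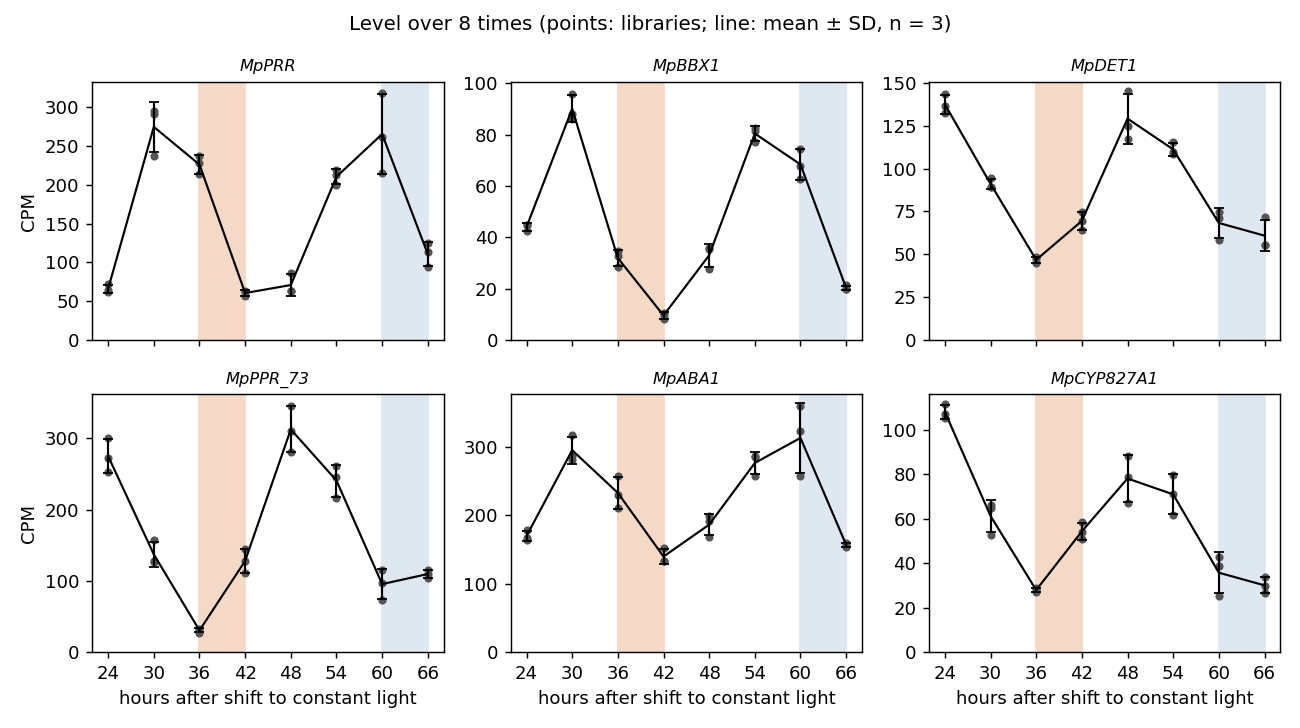
CPM at each of the 8 times for 6 called genes, with each library as a point and the line through the means (± SD, n = 3). Orange shading marks 36 h to 42 h and blue shading 60 h to 66 h. MpPRR, MpBBX1 and MpABA1 go down in both shaded spans, while MpDET1 and MpCYP827A1 go up in the first and have slightly lower means at the end of the second.

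The step from 60 h to 66 h lies 24 h later and uses none of the 6 libraries, though both steps share the spread estimated over all 24. It had 192 called genes (1.33%), of which 32 were higher (0.222%) and 160 lower (1.11%) at 66 h. Called in the same direction in both steps were 55 genes. The 45 shared falls were 35.7% of the falls from 36 h to 42 h and 28.1% of those from 60 h to 66 h. The 10 shared rises were 8.06% and 31.2% of the respective rises. The count of shared genes was 36 without replicate 1 at 36 h, 36 without replicate 1 at 60 h and 34 without replicate 2 at 60 h. Without regard to calls, 117 of the 126 falls (92.9%) and 94 of the 124 rises (75.8%) had the same sign 24 h later, against 55.3% over all tested genes. The median log2 change of the falls was −0.59 and then −0.40, and that of the rises 0.59 and then 0.12.

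Among the shared falls were MpPRR, at −1.26 from 60 h to 66 h (edgeR adjusted p = 1.61e-05), and MpBBX1, at −1.75 (1.84e-09). MpABA1 was at −1.00 (1.3e-05), MpGH16.8 at −0.72 (0.00529), MpGDPD at −0.79 (0.00313), MpKOL3 at −0.79 (0.0497) and MpPPO42 at −0.42 (0.014). Shared rises with a name were MpNPF22 at 0.73 (0.00209), MpUGT4 at 0.55 (0.000519) and MpBZIP8 at 0.41 (0.0349). MpDET1 was at −0.16 (0.562), MpPPR_73 at 0.20 (0.606), MpCYP827A1 at −0.25 (0.522) and MpAMT1.2 at 0.07 (0.866) in the later step.

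The difference between the steps was tested for every gene, and 36 of 14414 were called (0.25%), with 1184 at an unadjusted p below 0.05. In 33 of the 36 the later step was the lower one, and 16 of them were also called from 36 h to 42 h, 15 as rises. MpPPR_73 had the clearest difference of the named genes, at −1.87 on the log2 scale (edgeR adjusted p = 2.17e-05), and it was called under every alternative tried. MpCYP827A1 differed by −1.21 (0.00915). For MpDET1 the difference was −0.73 (0.0309), and this call was lost without any 36 h library, without replicate 1 or 3 at 42 h, and without replicate 1 or 2 at 60 h or at 66 h, with adjusted p from 0.0533 to 0.14, and with the summed level of genes for late embryogenesis abundant proteins as a covariate (0.0604). MpPRR did not differ at this threshold, with a difference of 0.64 ± 0.19 (SE) and an adjusted p of 0.28. The count of 36 was 14 to 23 without replicate 2 or 3 of 36 h or 42 h, replicate 1 or 2 at 60 h or replicate 1 or 3 at 66 h, and 96 without replicate 3 at 60 h.

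**Figure D5:**
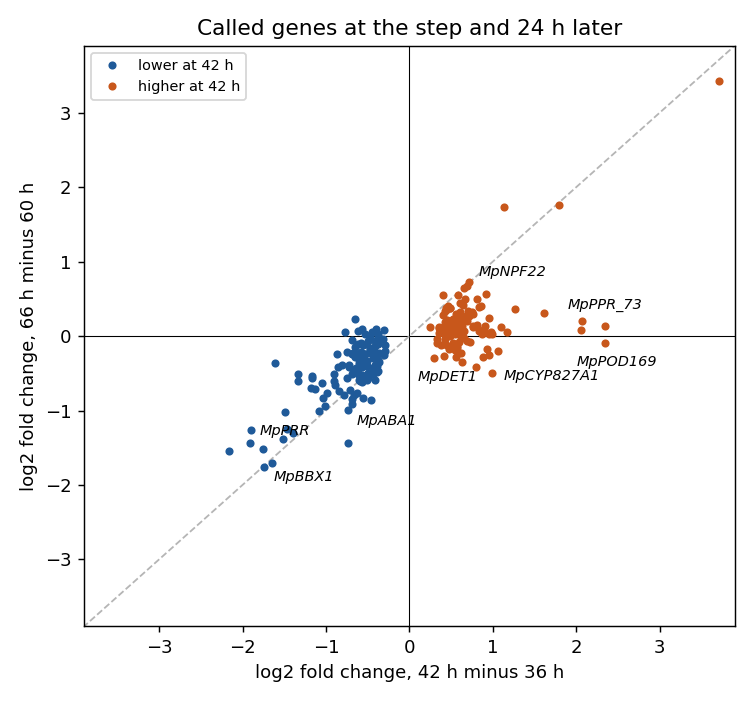
Log2 fold change from 36 h to 42 h (x axis) against that from 60 h to 66 h (y axis) for the 250 genes called in the first step, with falls in blue and rises in orange and equality as a dashed line. Most falls lie below 0 on both axes (117 of 126), while the rises lie nearer 0 on the y axis, with a median of 0.12.

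A group of genes had large fitted differences without being called. Of the genes with a fitted fall of 8-fold or more, 118 in number, none was called, with a smallest edgeR adjusted p of 0.0803. In 110 of them the times did not overlap, as in 9.12% of all tested genes in that direction. Choosing genes by the size of their fall in these same libraries itself favours such a separation. The median over these genes was 5.14 CPM at 36 h and 0.200 CPM at 42 h. In this set were 30 of 63 tested genes named for late embryogenesis abundant (LEA) proteins and dehydrins, which protect cells in drying tissue and are in many cases induced by abscisic acid. This list was made after its values were seen. Of the 63 genes 48 had a lower fitted value at 42 h, as did 50.5% of all tested genes, and 38 had no overlap in that direction, against 9.12% of all tested genes with such a separation, and none was called at an adjusted p below 0.05 (35 at an unadjusted p below 0.05). MpDHN1, a dehydrin, stood at 10.5, 39.8 and 12.6 CPM at 36 h and at 0.486, 1.25 and 1.98 CPM at 42 h, with an adjusted p of 0.269. The dehydrins MpDHN2 and MpDHN3 overlapped between the times, with log2 changes of 0.27 and −0.002. Abundant members with overlapping libraries weigh heavily in a sum over the list, such as MpLEA-like6 at 285 to 357 CPM at 42 h. MpLEA-like56, at 129 to 141 CPM at 42 h, is another. Summed over the list, the level was 1461, 2037 and 1432 CPM at 36 h and 1226, 1225 and 1234 CPM at 42 h. Libraries of a single time differed by more than that, with 2265, 1235 and 1368 CPM at 48 h and 1630, 2216 and 1220 CPM at 54 h. MpGCAM1, a regulator of gemma cup formation, had 6.53, 12.98 and 9.34 CPM at 36 h and 4.01, 2.18 and 3.66 CPM at 42 h (adjusted p = 0.401), so it too was lower in every 42 h library. With the summed LEA level of each library as a covariate, an alternative chosen after seeing the data, 163 genes were called, 64 higher and 99 lower, of which 151 were among the 250. The calls of MpPRR, MpBBX1, MpDET1, MpPPR_73 and MpABA1 were kept. Those of 11 named genes were lost, at adjusted p from 0.0533 to 0.186. They were MpDOXC2, MpADT4, MpPLATZ2, MpKOL3, MpPKS/CHS14, MpAUX1, Mp1R-MYB12, MpBHLH19, MpNAC4, MpRLK-Pelle_RLCK-Xva and MpSQS1. Every 36 h library had a higher summed level than every 42 h library, so the covariate overlaps with the time step. A kept or lost call in that fit therefore does not separate the 2. Whether this group has a part in the other changes was not tested.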

How the data were processed

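The authors deposited 1 table of raw read counts, in whole numbers, with a row for each gene and a column for each of 24 libraries. Per the labels' protocols, stranded libraries with poly(A) selection were prepared from 100 ng of total RNA. Genome build, aligner, counting program and use of strand are each not given in the sources used here, so overlapping genes and near-identical copies can share reads.

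Symbols were looked up by the digits of the locus tag in RefSeq's genes for the MpTak2_v7.1 assembly. Of 20574 identifiers 17641 matched and 3091 carried a symbol, and among tested genes 2572 did. The table's own identifiers end in the mark of a different annotation release, so a renumbered gene would carry a wrong symbol. Genes below about 1 CPM rest on few counts, so their values carry a large counting error beside the replicate spread.

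Analysis used R 4.3.3 and edgeR 4.0.16. Low genes were removed with filterByExpr at a minimum count of 10, libraries were scaled by TMM, and 1 mean per time was fitted to all 24 libraries (glmQLFit, glmQLFTest), tested on simulated data first. The SE of a log2 change is its size divided by the square root of F. P-values were adjusted over all 14414 tested genes by the Benjamini-Hochberg method. CPM were computed from the counts and the TMM factors.

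The genes named were all tested members of the clock, light signalling and photoreceptor lists, the 10 largest called rises and falls with a symbol, at least 10 CPM and no overlap, the leading members of each other list, the 2 largest rises and falls without a symbol under the same limits, the largest changes in CPM, and the 5 smallest p for the difference between days. MpCYP74N1, MpSNRK2A, MpNCED, MpABA4, the 3 chelatase-related genes, MpFBA4, MpACT1, MpAPT, MpEF1, MpDHN1, MpGCAM1 and others outside that rule were chosen after their values were seen. The members and lists were chosen with earlier results of these data known. Alternatives were RLE scaling, DESeq2 1.42.0, voom of limma 3.58.1, other filters, fewer libraries, a replicate block, each library left out, identical count rows kept once and the LEA covariate, the last 2 added after seeing the data.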

Additional observations from a re-analysis of the deposited data

Results flagged for a closer look

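These results were picked out because a test of the difference between the step from 60 h to 66 h and the step from 36 h to 42 h passed the threshold (edgeR adjusted p below 0.05, later step minus earlier step on the log2 scale). Over all tested genes 36 were called. The groups of 3 libraries were too small for a search for single outlying samples.

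MpPPR_73 differed by −1.87, the neighbouring MpPOD169 by −2.44 (adjusted p = 0.028) and Mp6g04480 by −1.97 (0.00213), and each rose from 36 h to 42 h with no called change a day later. MpCYP827A1 differed by −1.21 and MpDET1 by −0.73, with the same order of the steps. MpSQS1, squalene synthase of sterol synthesis, was called in opposite directions. It rose by 0.29 from 36 h to 42 h (0.0257) and fell by 0.30 from 60 h to 66 h (0.0279), a difference of −0.59 (0.00587). Its first call was lost without any 36 h library or replicate 1 or 3 at 42 h (0.0651 to 0.155). MpSIG5, a plastid sigma factor, was at 0.20 (0.692) in the first step and −1.08 (0.000229) in the second, a difference of −1.28 (0.00595). MpMDHAR3, which regenerates ascorbate, was at 0.21 (0.649) and −0.84 (0.00267), a difference of −1.05 (0.0279). The differences of MpPOD169 and MpMDHAR3 lost their calls without single libraries, at adjusted p from 0.0557 to 0.124 without replicate 1, 2 or 3 at 36 h, 2 at 42 h, 1 or 2 at 60 h or 1 or 3 at 66 h for the first, and from 0.0534 to 0.114 without replicate 2 or 3 at 36 h, 2 at 42 h, 2 at 60 h or 1 or 3 at 66 h for the second.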

How the results depend on the processing

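RLE scaling, limma-voom, other low-count filters, identical rows kept once and leaving out the most abundant V-chromosome gene gave 227 to 248 called genes. DESeq2 called 424 genes (236 higher), 376 from 60 h to 66 h, 108 for the difference and 96 in both steps. A fit to the compared times only called 252 genes, of which 133 were among the 250, with 16 from 60 h to 66 h, 4 for the difference and 12 in both steps. In that fit, of the named differences between the steps, those other than of MpPPR_73 lost their calls. An adjusted p below 0.01 left 111 genes, and an added fold of 2 left 33. With the LEA covariate 163 genes were called (64 higher) and 22 for the difference.

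Same-numbered libraries at 36 h and 42 h deviated from their means with correlations of −0.267, −0.317 and −0.114, so the numbers were not taken as pairs. A replicate block in the fit to all libraries called 245 genes, 227 of them among the 250. A replicate block with the compared times only called 108 (15 higher), 33 of them among the 250, with 7 list members, 11 named genes, 16 from 60 h to 66 h, 6 for the difference and 8 in both steps; MpDET1 was then at an adjusted p of 0.0977. None of the 6 libraries of 36 h and 42 h correlated best with its own number. Same-numbered libraries at 60 h and 66 h had correlations of 0.033, 0.036 and 0.169, and some of these libraries did correlate best with their own number.

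Leaving out 1 library at a time gave 137 to 222 called genes, 56 to 115 higher, 69 to 127 lower, 16 to 36 list members and 24 to 38 named genes. It gave 81 to 335 from 60 h to 66 h, 14 to 96 for the difference and 34 to 62 in both steps. Signs that turned all belonged to genes that were not called. With a library left out, they ranged from −0.0799 to 0.174 (MpCOP10, −0.0021 without replicate 2 at 42 h), −0.0033 to 0.134 (MpPHY), −0.011 to 0.0983 (MpCRY), −0.029 to 0.215 (MpELF4) and −0.029 to 0.142 (MpSPA1), and MpCOP1 reached 0.0019. With the covariate they were MpBBX5 (−0.024), MpPHY (−0.016) and MpCRY (−0.052).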

Other observations

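Called genes stood side by side in 11 adjacent pairs in identifier order, and in all 11 both genes moved the same way. How often adjacent genes move together over all tested genes was not counted, so these numbers are a description. Mp7g05880 and Mp7g05890 fell by 1.75 and 1.51 on the log2 scale, Mp1g10610 and Mp1g10620 by 2.16 and 1.64, and Mp6g04480 and Mp6g04490 rose by 2.06 and 2.34. In 2 of the pairs, Mp7g01910 with Mp7g01920 and Mp8g13720 with Mp8g13730, both genes had identical counts in every library. Those 2 pairs could only move the same way. These 4 called genes are 2 measurements, and 82 of the tested genes had such an identical partner. Without the repeats 248 genes were called.

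Some further called genes with a symbol were chosen after their values were seen. The plastid terminal oxidase genes by name moved apart, with MpPTOXa at −0.61 (edgeR adjusted p = 0.0369) and MpPTOXb at 0.48 (0.0419). MpDHAR3, a dehydroascorbate reductase, was at −0.65 (0.00916), and the glutathione transferase genes MpGST35 and MpGST12 at −0.57 (0.00135) and −0.43 (0.0158), the 2 called of 33 tested MpGST genes. Both GST genes were also called lower from 60 h to 66 h, at −0.55 (0.00267) and −0.43 (0.0201). MpCCAAT-NFYA, a subunit of the CCAAT-binding factor, was at −0.56 (0.000559).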
